A study of Mus musculus with 4 samples.

Results

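The acute-phase proteins and the receptors and signal carriers of the interleukin 6 (IL-6) family were followed as a set of 10 genes chosen by symbol: *Lcn2*, *Serpina3n*, *Saa3*, *Hp*, *Osmr*, *Il6ra*, *Il6st*, *Lifr*, *Stat3* and *Socs3*. All 10 were among the 32285 genes in use and had UMIs (unique molecular identifiers, each standing for 1 captured probe product) in every section. Pancreas sections were profiled by Visium CytAssist spatial transcriptomics, in which each barcoded spot of a capture area takes up probe products from the small patch of tissue above it and can hold several cells. The mice were C57Bl/6, carried *Pdx1-Cre*, which drives recombination in the pancreatic epithelium, and were 4 weeks old per the study's methods. Sections of 2 genotypes were compared, 2 sections each, every section from its own mouse: *Ehmt2*+/+ (*Pdx1-Cre* alone) and *Ehmt2*fl/fl (*Pdx1-Cre* with floxed *Ehmt2*, which encodes a histone H3 lysine methyltransferase). After a 12 h fast, all 4 mice received 8 hourly injections of caerulein, each of 50 μg/kg, to induce acute pancreatitis, and tissue was taken at 18 h counted from the first injection. No untreated section was analysed here, so the values describe inflamed pancreas of both genotypes.

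Acute-phase proteins are secreted proteins whose production rises in injury and infection, mostly in the liver but also in epithelial, stromal and fat cells of inflamed tissue. IL-6 family cytokines bind a receptor specific to the ligand, such as IL-6 receptor α (*Il6ra*), the oncostatin M receptor (*Osmr*) or the leukemia inhibitory factor receptor (*Lifr*), which pairs with the shared chain gp130 (*Il6st*). Janus kinases then phosphorylate STAT3, which enters the nucleus and activates genes that include acute-phase genes and *Socs3*, and the SOCS3 protein in turn blocks the receptor complex.

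The sections differed in ways that touch every value below. Spots with at least 500 UMIs numbered 6144 to 7871 per section and held 6643747 to 7938386 UMIs in 3 sections and 43784930 UMIs in *Ehmt2*+/+ replicate 1. Digestive enzyme transcripts took 62.5% and 51.9% of UMIs in the *Ehmt2*+/+ sections and 21.6% and 20.9% in the *Ehmt2*fl/fl sections. Levels are therefore given as CPM (UMIs per 1000000 UMIs of a section) and as non-enzyme CPM (UMIs per 1000000 UMIs other than those of 34 listed enzyme genes), and values of 4 sections are always in the order *Ehmt2*+/+ replicates 1 and 2, then *Ehmt2*fl/fl replicates 1 and 2. Levels of different genes rest on different probes and are not ranked against each other. Olfactory receptor genes, which pancreas is not known to use, had a median of 0.251 and 4.97 CPM in *Ehmt2*+/+ replicates 1 and 2 and 8.13 and 12.6 CPM in *Ehmt2*fl/fl replicates 1 and 2, and these stray counts were higher in the *Ehmt2*fl/fl sections. Members exceeded that median 1.67-fold (*Osmr*, *Ehmt2*+/+ replicate 2) to 181-fold (*Il6st*, *Ehmt2*+/+ replicate 1). *Ehmt2* itself stood at 19.8 and 3.95 CPM in *Ehmt2*+/+ and at 10.1 and 12.1 CPM in *Ehmt2*fl/fl sections. That was 78.6, 0.795, 1.24 and 0.96 times the olfactory receptor median, at the stray level in all but *Ehmt2*+/+ replicate 1. Its count therefore does not check the labels. The Y-linked genes *Ddx3y*, *Eif2s3y*, *Kdm5d* and *Uty* had at most 1 UMI each in the *Ehmt2*+/+ sections and at least 4.97 CPM in the *Ehmt2*fl/fl sections, while *Xist* had none in any, so genotype and sex cannot be told apart here. Each slide held 1 section of each genotype, and the capture area position went with genotype. The array design shares its spot barcodes between capture areas (13898 to 14336 per pair of sections), which carries no information on cells.

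In spots with at least 500 UMIs, all 10 members had a higher CPM in both *Ehmt2*fl/fl sections than in either *Ehmt2*+/+ section. So did 91.4% of 20222 genes with enough counts, against 0.816% that were lower in both, so this says nothing particular about the set. In non-enzyme CPM, 8 of the 10 members were higher without overlap and none was lower, where 51.3% of 20194 genes were higher and 5.68% lower. A two-sided exact permutation test over 2 against 2 sections cannot go below p = 0.333, the value found for every non-overlapping member. Fewer cells of a type and less RNA per cell cannot be told apart in these sums.

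**Figure D1:**
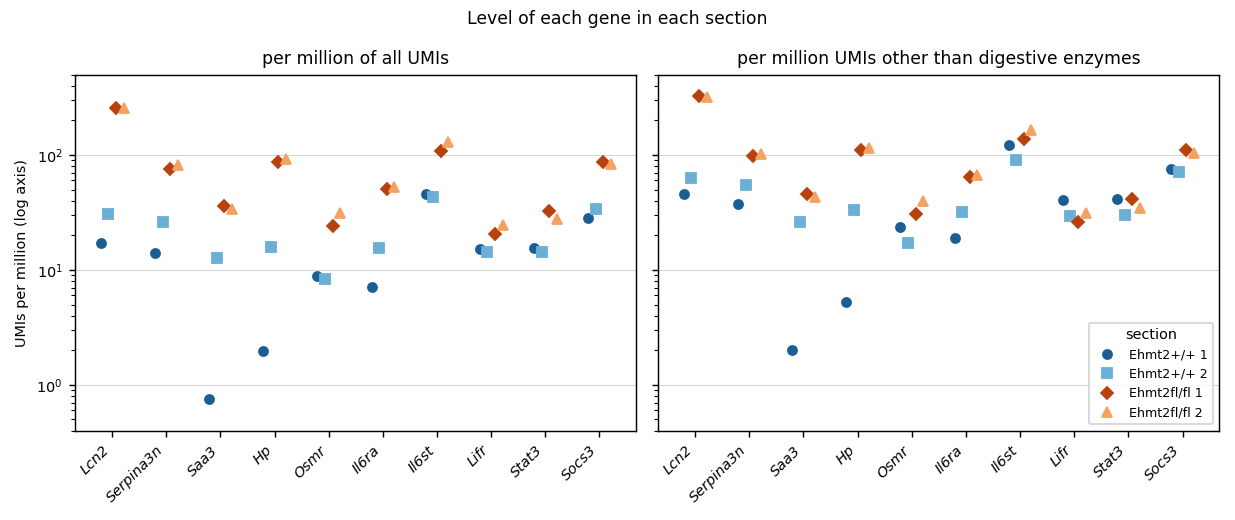
CPM of each member in each of the 4 sections (log axis) at left and non-enzyme CPM at right, where each symbol is 1 section. The *Ehmt2*fl/fl sections lie above both *Ehmt2*+/+ sections for 10 members at left and for 8 at right, with *Lifr* and *Stat3* overlapping.

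*Lcn2* (chromosome 2, 32384633 to 32388252, GRCm38) encodes lipocalin 2, a secreted protein that binds bacterial siderophores and is made by neutrophils and injured epithelium. Its level was 17.0 and 30.3 CPM in the *Ehmt2*+/+ sections and 257 and 254 CPM in the *Ehmt2*fl/fl sections. The *Ehmt2*fl/fl replicates lay close together and far above both *Ehmt2*+/+ replicates (255 ± 2.27 against 23.7 ± 9.42 CPM, SD, n = 2 each). In non-enzyme CPM the values were 45.4, 63.1, 328 and 321, a ratio of 7.21 between genotypes on slide 1 and 5.08 on slide 2. At least 1 *Lcn2* UMI was seen in 10.7% and 2.95% of *Ehmt2*+/+ spots and in 21.9% and 24.0% of *Ehmt2*fl/fl spots. Thinned to 500 UMIs per spot, which equals total depth but not that outside the enzymes, the shares were 0.917%, 1.66%, 11.7% and 11.1%. Thinned to 500 non-enzyme UMIs they were 2.28%, 2.97%, 14.9% and 13.8%. Under both, *Ehmt2*+/+ replicate 1 no longer had the higher share of its group, and the *Ehmt2*fl/fl sections stayed above both.

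Neutrophils carry *Lcn2* too, and 10 neutrophil marker genes, none of them at 0, summed to 4.43 and 58.5 CPM in *Ehmt2*+/+ and to 171 and 183 CPM in *Ehmt2*fl/fl sections. Such marker UMIs were absent from 96.9% and 94.5% of *Ehmt2*+/+ spots and from 84.5% and 80.2% of *Ehmt2*fl/fl spots, and these marker-free spots held 97.2% and 94.5% of *Lcn2* UMIs in the *Ehmt2*+/+ sections and 83.3% and 76.9% in the *Ehmt2*fl/fl sections. There *Lcn2* stood at 45.8, 64.0, 328 and 319 non-enzyme CPM. Olfactory receptor genes had a median of 0.251, 4.97, 8.13 and 12.6 CPM per gene, so 10 genes at that stray level would give sums of the same order. A spot with a marker UMI therefore need not hold neutrophils. A spot without a marker UMI can still hold neutrophils at this depth, and their part in the *Lcn2* values was not tested.

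*Hp* (chromosome 8, 109575128 to 109579172) encodes haptoglobin, the plasma protein that binds free hemoglobin, which liver and fat tissue are known to make. It was measured at 1.99 and 15.9 CPM in the *Ehmt2*+/+ sections and at 86.7 and 91.6 CPM in the *Ehmt2*fl/fl sections. Outside the enzyme UMIs these became 5.30, 33.1, 111 and 116. The *Ehmt2*fl/fl values lay close together while the *Ehmt2*+/+ values lay far apart, and the ratio between genotypes was 20.9 on slide 1 and 3.50 on slide 2. Thinned shares of spots were 0.168% and 0.791% in *Ehmt2*+/+ against 4.05% and 4.09% in *Ehmt2*fl/fl sections at 500 UMIs. Among spots with at least 500 non-enzyme UMIs, thinned to that number, they were 0.358% and 1.93% against 4.81% and 4.93%. Hepatocyte markers, 8 genes with none at 0, summed to 4.41, 57.1, 89.6 and 141 CPM over the same 4 sections, and *Hp* in spots without a hepatocyte marker UMI was 5.34, 30.3, 111 and 112 non-enzyme CPM, with the part of such cells not tested. The hepatocyte sums, too, were of the order that 8 genes at the olfactory receptor median would give.

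*Saa3* (chromosome 7, 46711998 to 46715700) encodes serum amyloid A3, the serum amyloid made outside the liver by macrophages and fat cells. It had 33 and 99 UMIs in the *Ehmt2*+/+ sections, or 0.754 (95% exact Poisson interval 0.519 to 1.06) and 12.6 CPM, and 238 and 268 UMIs in the *Ehmt2*fl/fl sections, or 35.8 and 33.8 CPM. Intervals on counts cover counting error only. The levels in non-enzyme CPM were 2.01, 26.2, 45.7 and 42.7, so *Ehmt2*+/+ replicate 2 lay nearer to the *Ehmt2*fl/fl sections than to its own group (ratios of 22.7 on slide 1 and 1.63 on slide 2). *Saa3* exceeded the olfactory receptor median by 2.54-fold to 4.41-fold. Macrophage markers, 10 genes with none at 0, summed to 86.8 and 157 CPM in *Ehmt2*+/+ and to 1031 and 846 CPM in *Ehmt2*fl/fl sections. In spots without a macrophage marker UMI, *Saa3* was at 2.08, 22.0, 38.9 and 30.8 non-enzyme CPM, below its level over all spots in 3 of 4 sections, and the part of macrophages beyond these values was not tested.

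*Serpina3n* (chromosome 12, 104406729 to 104414329) encodes a secreted serine protease inhibitor related to human antichymotrypsin. Its level was 13.95 and 26.3 CPM in the *Ehmt2*+/+ sections and 76.0 and 81.0 CPM in the *Ehmt2*fl/fl sections. On the non-enzyme scale it was 37.3, 54.6, 97.0 and 102, with ratios of 2.60 and 1.88 on slides 1 and 2. The groups did not overlap on either scale, and the spread within each group was smaller than the gap.

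Promoters of the members were searched because STAT3 and C/EBP proteins are the known activators of acute-phase genes. RefSeq promoter entries on GRCm38.p6 were matched for 9 members, with *Hp* the member not matched, and the 250 bases before the transcript start of each entry were read on both strands for the STAT motif TTCNNNGAA and the C/EBP-like motif TTNNGNAAT, which do not overlap in these windows. That start is not always the outermost of the gene: the windows of *Lcn2*, *Osmr*, *Lifr* (both of its entries) and *Socs3* lie inside the gene spans printed here, and that of *Saa3* overlaps its span. Among all 32851 promoters of that length, 7.02% hold the STAT motif and 10.2% the C/EBP-like motif. Of the 9 members, *Socs3* alone held the STAT motif and *Serpina3n* alone held the C/EBP-like motif, at 2 places. A match to these letters is a description, and a window without one says only that the letters are not there. The windows that hold matches are shown 5′ to 3′ with the matches in capitals, for *Serpina3n* all 250 bases on the plus strand at chr12:104406458-104406707, and for *Socs3* the part free of annotated exons, 165 bases on the minus strand at chr11:117969452-117969616.
Serpina3n: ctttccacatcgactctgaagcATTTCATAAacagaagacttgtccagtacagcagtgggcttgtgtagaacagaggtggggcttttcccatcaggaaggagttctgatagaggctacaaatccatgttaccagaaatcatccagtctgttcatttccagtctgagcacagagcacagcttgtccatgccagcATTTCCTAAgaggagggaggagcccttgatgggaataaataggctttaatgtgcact
Socs3: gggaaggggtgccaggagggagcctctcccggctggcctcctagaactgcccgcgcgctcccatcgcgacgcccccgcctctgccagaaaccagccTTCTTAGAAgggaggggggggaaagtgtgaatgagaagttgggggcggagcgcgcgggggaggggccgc

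Among the 4 receptors, *Il6ra* had the highest ratio between genotypes (4.59 in CPM and 2.58 in non-enzyme CPM) and *Lifr* the lowest (1.54 and 0.82). *Il6ra* (chromosome 3, 89864059 to 89913196) stood at 7.10 and 15.4 CPM in *Ehmt2*+/+ and at 50.6 and 52.9 CPM in *Ehmt2*fl/fl sections. Its non-enzyme levels were 19.0, 32.1, 64.5 and 66.9, without overlap, with ratios of 3.40 on slide 1 and 2.09 on slide 2. *Il6st* (chromosome 13, 112464070 to 112510086) was measured at 45.5, 43.5, 107 and 131 CPM in the same order. On the non-enzyme scale it was 122, 90.3, 137 and 165, where the gap between the nearest sections of the groups was less than the spread within either group. *Osmr* (chromosome 15, 6813577 to 6874969) was measured close to the olfactory receptor median in 3 sections (1.67-fold to 2.94-fold), with 8.77, 8.28, 23.9 and 31.4 CPM across the 4 sections. Its non-enzyme levels of 23.4, 17.2, 30.5 and 39.7 did not overlap, with ratios of 1.3 and 2.3 on the 2 slides.

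*Lifr* (chromosome 15, 7090614 to 7197489) had a CPM of 15.2 and 14.3 in *Ehmt2*+/+ and of 20.6 and 24.8 in *Ehmt2*fl/fl sections. Outside *Ehmt2*+/+ replicate 1 this was close to the olfactory receptor median (1.97-fold to 2.87-fold). Outside the enzyme UMIs it was 40.7, 29.7, 26.3 and 31.4, so the groups overlapped and the order turned (two-sided exact permutation test, p = 0.667, ratios of 0.647 on slide 1 and 1.06 on slide 2). Among spots with at least 500 non-enzyme UMIs, thinned to that number, the *Lifr* shares were 1.85% and 1.69% in *Ehmt2*+/+ and 1.3% and 1.55% in *Ehmt2*fl/fl sections. *Lifr* was the only member with a lower share in both *Ehmt2*fl/fl sections under this thinning.

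*Stat3* (chromosome 11, 100885098 to 100939540), the transcription factor at the centre of the pathway, was at 15.5 and 14.4 CPM in *Ehmt2*+/+ and at 32.4 and 27.6 CPM in *Ehmt2*fl/fl sections. Outside *Ehmt2*+/+ replicate 1 this was 2.19-fold to 3.98-fold the olfactory receptor median. Outside the enzyme UMIs the groups overlapped, at 41.3, 29.9, 41.3 and 34.9 non-enzyme CPM, and the slide ratios were 0.999 and 1.17. Transcript counts say nothing of STAT3 phosphorylation. *Socs3* (chromosome 11, 117966079 to 117970047), its target and feedback inhibitor, stood at 28.4, 34.2, 87.3 and 82.9 CPM and at 75.8, 71.0, 111 and 105 non-enzyme CPM. The groups did not overlap for *Socs3*, and both slides gave nearly the same ratio, 1.47 and 1.48.

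In the fit across all genes, edgeR's quasi-likelihood test on UMI sums per section with TMM factors, 11 of 20053 genes were higher in *Ehmt2*fl/fl sections at a Benjamini-Hochberg adjusted p under 0.05 (0.0549%) and 11 lower (0.0549%). No member passed. At an unadjusted p under 0.05, 77 genes were higher and 982 lower. DESeq2 called 6 genes higher and 464 lower, again with no member called, although it gave no adjusted p to most genes. The median log2 fold change was 0.25 over all genes tested and -0.16 over the 10 members. *Hp* had the largest value of the set, 2.0 (SE 0.84, edgeR adjusted p = 0.785), above 99.7% of genes. *Lcn2* followed at 1.57 (SE 0.99, edgeR adjusted p = 0.863) and *Saa3* at 1.24 (SE 0.67, edgeR adjusted p = 0.863), above 99.4% and 97.4% of genes. *Il6ra* and *Serpina3n* lay near the all-gene median, at 0.42 (SE 0.76) and 0.12 (SE 0.86). The other members had negative values, from -0.45 for *Osmr* to -1.52 for *Lifr* (SE 0.77), the latter above 7.78% of genes. The TMM factors were 0.288 and 0.957 in *Ehmt2*+/+ and 1.71 and 2.13 in *Ehmt2*fl/fl sections. In CPM scaled by them, *Ehmt2*+/+ replicate 1 lay above both *Ehmt2*fl/fl sections for all these members. *Ehmt2*+/+ replicate 2 lay below both for *Osmr*, *Il6st* and *Socs3*, between them for *Stat3* and above both for *Lifr*. On counts simulated at the dispersion of these sections, the same test recovered 0 of 199 genes changed by a log2 of 2. A gene not called here can therefore not be read as unchanged.

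Scaling decided the sign for 5 members. With library sizes alone, which move the all-gene median to 1.69, all 10 values were positive, *Lcn2* was called higher at 3.44 (SE 0.34, edgeR adjusted p = 0.0228) and *Il6st* at 1.42 (edgeR adjusted p = 0.0451), and *Osmr*, *Il6st*, *Lifr*, *Stat3* and *Socs3* turned from negative to positive. The rank of *Lcn2*, *Hp* and *Saa3* among all genes moved little, at or above 95.3% of genes. Without *Ehmt2*+/+ replicate 1, the deepest section, *Lcn2* was at 2.11 (SE 0.59) and *Hp* at 1.52 (SE 0.44), beside an all-gene median of 0.038. In that fit 4 members turned from negative to positive, *Osmr* (0.77), *Il6st* (0.48), *Stat3* and *Socs3*, and *Lifr* did not. Without *Ehmt2*+/+ replicate 2, edgeR called 9348 genes higher and 7305 lower, among them 3 members higher (*Lcn2*, *Saa3* and *Hp*) and 5 lower (*Osmr*, *Il6st*, *Lifr*, *Stat3* and *Socs3*), with the lone *Ehmt2*+/+ section assumed to vary like the others. With slide as a block no member was called, *Hp* at 2.12 and *Lcn2* at 1.63 (edgeR adjusted p = 0.831 for both).

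**Figure D2:**
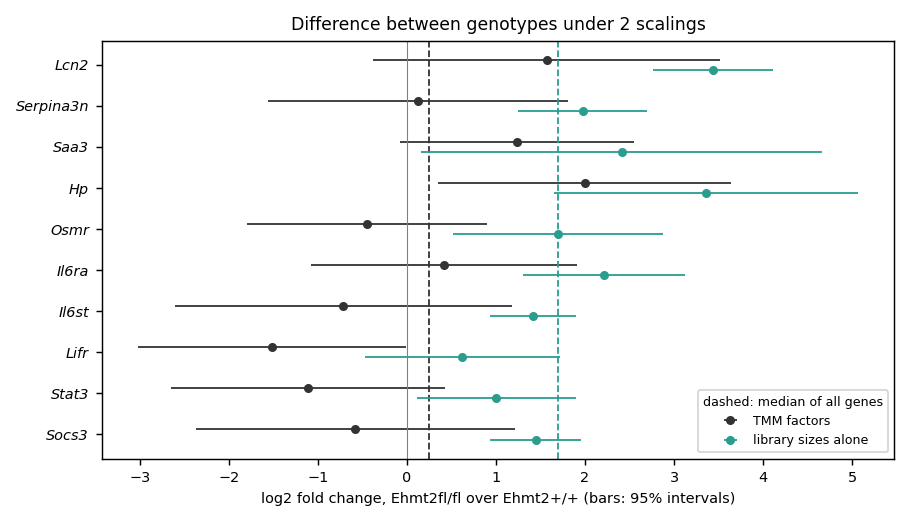
Log2 fold change of each member between genotypes in the edgeR fit, with TMM factors and with library sizes alone; bars span 95% intervals and dashed lines mark the median of all genes under the same scaling (0.25 and 1.69). *Lcn2*, *Saa3* and *Hp* lie right of both medians, and 5 members cross 0 when the scaling changes.

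The wider pathway was read from lists of genes, in the same fit. None of the 9 ligands, 9 receptors, 11 Janus kinases and STATs, 13 feedback regulators, 26 acute-phase proteins and 20 STAT3 targets tested was called, where edgeR called 0.0549% of all genes in each direction. Given the simulated counts above, this lack of calls cannot be read as a lack of change. Median log2 fold changes were 0.56 for the ligands, -0.45 for the receptors, -0.95 for the Janus kinases and STATs, -0.58 for the feedback regulators, 0.95 for the acute-phase proteins and -0.11 for the STAT3 targets, beside 0.25 over all genes. With library sizes alone the medians ran from 1.12 to 2.14 beside 1.69. There 1 receptor, 2 acute-phase proteins and 6 STAT3 targets were called higher, where 388 of 20053 genes were called higher. DESeq2 called 1 receptor, 1 acute-phase protein and 2 STAT3 targets lower, where 464 genes were called lower. The order of the lists depended on *Ehmt2*+/+ replicate 1. Without it the medians were 0.11 for the ligands, 0.16 for the receptors and 0.030 for the Janus kinases and STATs. They were 0.18 for the feedback regulators, 0.26 for the acute-phase proteins and 0.57 for the STAT3 targets, beside 0.038 over all genes. Without *Ehmt2*+/+ replicate 2, they ran from -1.63 for the Janus kinases and STATs to 2.20 for the acute-phase proteins, beside 0.50.

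The ligands were scarce. *Osm*, encoding oncostatin M, and *Il27* had the largest log2 fold changes of the ligands in the fit with TMM factors (1.56 and 1.01). *Osm* was at 0.297 and 5.23 CPM in *Ehmt2*+/+ and at 16.3 and 20.2 CPM in *Ehmt2*fl/fl sections. For *Il27* the levels were 0.365, 5.61, 12.9 and 14.2 CPM. The levels of *Il27* and *Osm* lay near the olfactory receptor median in every section, which was 8.13 and 12.6 CPM in the *Ehmt2*fl/fl sections. *Ctf1* (2.44, 12.7, 22.3 and 24.8 CPM) and *Clcf1* (1.16, 6.5, 14.1 and 13.2 CPM) had the smallest log2 fold changes, 0.18 and 0.42. *Il6* itself, named after its values were seen, had 0.206, 6.12, 8.58 and 14.1 CPM, at or near the olfactory receptor median of each section. Of the receptors outside the set, *Il27ra* had 0.0685, 1.78, 2.56 and 4.91 CPM, below that median throughout.

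Among kinases and STATs, *Stat4* (0.32, 6.37, 8.58 and 8.69 CPM, near or below the olfactory receptor median in every section) and *Jak2* (5.23, 8.67, 16.6 and 20.7 CPM) had the largest log2 fold changes, 0.24 and -0.49. *Jak1* (80.4, 60.5, 129 and 109 CPM) was among those with the smallest, at -1.43. For *Jak1* and *Jak2* the CPM was higher in both *Ehmt2*fl/fl sections although the fitted value was negative. By log2 fold change, the highest feedback genes were *Socs1* (2.81, 14.9, 39.7 and 35.6 CPM) and *Ptpn6* (2.49, 10.3, 29.7 and 25.7 CPM). The lowest were *Ptpn11* (39.6, 32.1, 56.0 and 57.6 CPM) and *Cish* (14.5, 13.8, 19.6 and 21.2 CPM). In the acute-phase list, *Fga*, a fibrinogen chain, had 0 UMIs in both *Ehmt2*+/+ sections, which allows up to 0.0685 and 0.382 CPM, so its fitted value is no measured fold. Its 21 and 16 UMIs in the *Ehmt2*fl/fl sections, or 3.16 and 2.02 CPM, lay below the olfactory receptor median. *Hp* had the largest of the other log2 fold changes, and the smallest belonged to *Itih4* (48.7, 31.9, 30.3 and 39.1 CPM) and *Serpina3n*. Outside the rule, *Orm2*, *Hpx* and *C3* were named after their values were seen. The liver genes *Orm2* (0.183, 5.99, 9.33 and 12.0 CPM) and *Hpx* (0.0685, 4.08, 7.53 and 10.5 CPM), ran in the order of the olfactory receptor median from section to section, whereas *C3*, encoding complement C3, stood at 345 and 270 CPM in *Ehmt2*fl/fl sections against 22.3 and 47.2 CPM in *Ehmt2*+/+ sections.

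Of the STAT3 targets, *Il4ra*, encoding the interleukin 4 receptor α chain, stood at 9.59 and 24.5 CPM in *Ehmt2*+/+ and at 221 and 224 CPM in *Ehmt2*fl/fl sections, and *Ccnd1*, encoding cyclin D1, at 12.6, 24.98, 144 and 111 CPM. In the other direction, the pancreatitis-associated lectins *Reg3b* (4034 and 3199 against 736 and 432 CPM) and *Reg3g* (597 and 484 against 276 and 185 CPM) were lower in both *Ehmt2*fl/fl sections. The enzyme UMI share was lower in the same sections, and its part in these values was not tested.

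Position within the sections was examined next, with each section's spots divided into quartiles by enzyme share and levels given in non-enzyme CPM. The poorest quartile held 55.3%, 35.1%, 7.34% and 5.13% enzyme UMIs in the 4 sections, and the richest 65.8%, 60.3%, 34.9% and 34.3%. Even the poorest quartiles of the *Ehmt2*+/+ sections were thus no poorer in enzymes than the richest of the *Ehmt2*fl/fl sections, and quartiles compare spots within a section only. *Hp* was highest in the enzyme-poorest quartile of every section, at 11.3, 61.6, 212 and 284, against 3.33, 21.3, 67.5 and 54.1 in the enzyme-richest quartile. *Saa3* showed the same order of end quartiles, at 4.34, 56.4, 76.3 and 79.0 against 1.57, 13.2, 34.1 and 28.8. *Serpina3n* was highest in the poorest quartile in 3 of 4 sections, most of all in *Ehmt2*fl/fl replicate 2 (182 against 69.3). *Lcn2* departed from them in the *Ehmt2*fl/fl sections, where the middle quartiles were highest (366 and 368 in replicate 1, 372 and 366 in replicate 2) and the poorest quartile held 293 and 229. *Il6ra* stood at 90.9 and 84.2 in the poorest and at 48.4 and 46.4 in the richest quartile of the *Ehmt2*fl/fl sections, and *Il6st* between 122 and 149 in replicate 1 and between 156 and 185 in replicate 2.

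**Figure D3:**
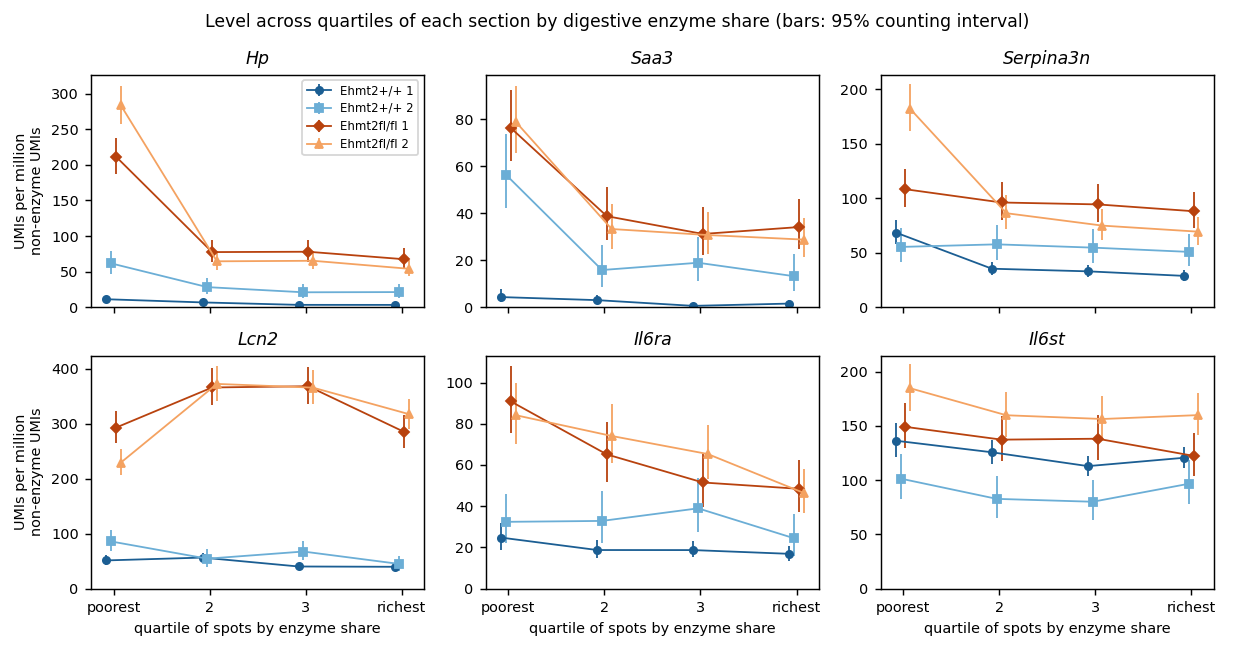
Non-enzyme CPM of 6 members in quartiles of each section's spots ordered from the poorest to the richest in digestive enzyme UMIs, with 95% exact Poisson intervals for counting error; lines join the quartiles of 1 section. *Hp* is highest in the poorest quartile in all 4 sections, while *Lcn2* in the *Ehmt2*fl/fl sections is highest in the middle quartiles.

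Spot classes tested this with sections as replicates: UMIs of a class and of the other spots were summed per section and compared by edgeR with section as a block. Enzyme-poor spots were the 25% of each section with the lowest enzyme share, and so as unlike in enzyme content between genotypes as the quartiles above. Their median depth was 2502, 667.5, 845 and 913 UMIs, against 7564.5, 962, 1024 and 1185.5 in the other spots. The part of depth and stray counts in the calls was not tested. In enzyme-poor spots 2.04% of 20074 genes were called higher and 14.1% lower. *Hp* (log2 fold change 1.34, SE 0.17, edgeR adjusted p = 1.86e-06) and *Saa3* (1.03, SE 0.18, edgeR adjusted p = 0.000105) were higher there, in 4 of 4 sections, and both calls held when any section was left out. In the *Ehmt2*+/+ sections alone 0 members were called higher, where 114 of 19698 genes were. In the *Ehmt2*fl/fl sections alone 4 members were called higher, where 657 of 19930 genes were. In the fit of all 4 sections, *Lcn2* (-0.47, SE 0.14, edgeR adjusted p = 0.0138), *Lifr* (-0.72, SE 0.18, edgeR adjusted p = 0.00459) and *Stat3* (-0.50, SE 0.17, edgeR adjusted p = 0.0331) were called lower in enzyme-poor spots. In non-enzyme CPM *Lcn2* was lower there in 2 of 4 sections, both *Ehmt2*fl/fl, and *Lifr* and *Stat3* each in 3 of 4, whereas in CPM *Stat3* was higher there in 4 of 4 sections, *Lcn2* in 3 and *Lifr* in 2. Those 3 calls were lost without *Ehmt2*+/+ replicate 1 (edgeR adjusted p = 0.0535, 0.0608 and 0.134), *Lcn2* was also lost without *Ehmt2*fl/fl replicate 2 (edgeR adjusted p = 0.213), and *Stat3* without *Ehmt2*+/+ replicate 2 or *Ehmt2*fl/fl replicate 1 (edgeR adjusted p = 0.147 and 0.0577). With library sizes alone all 3 values turned positive, to 0.31, 0.09 and 0.29.

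*Hp* stood apart most in spots rich in fat markers, where its level in non-enzyme CPM was 29.6, 407, 1336 and 1002 across the 4 sections, against 4.95, 30.2, 86.4 and 74.8 in the other spots. The class was the up to 10% of spots with the highest share of 8 adipocyte genes and at least 3 of their UMIs, and it held 59, 28, 112 and 219 spots. These few spots contained 7 of 87, 12 of 125, 135 of 576 and 278 of 727 *Hp* UMIs. The log2 fold change was 3.12 (SE 0.40, edgeR adjusted p = 9.84e-12), higher in 4 of 4 sections, with 0.165% of 19988 genes called higher and 0.205% lower in that fit. The call held when any section was left out, at 2.77 to 3.46, and in the sections of each genotype on their own, at 2.45 for *Ehmt2*+/+ and 3.70 for *Ehmt2*fl/fl. *Hp* was the only member called. *Serpina3n* had 84.7, 169, 267 and 519 non-enzyme CPM in fat-marker spots against 36.6, 53.7, 93.6 and 83.1 in the others (log2 fold change 1.29, SE 0.39, edgeR adjusted p = 0.138), and *Saa3* 4.23, 67.8, 99.0 and 137 against 1.98, 25.9, 44.6 and 38.3 (1.15, SE 0.48, edgeR adjusted p = 0.505). Fat markers summed to 43.3 and 144 CPM in *Ehmt2*+/+ and to 382 and 492 CPM in *Ehmt2*fl/fl sections. In spots without a fat-marker UMI, *Hp* was at 5.28 and 27.8 non-enzyme CPM in *Ehmt2*+/+ and at 82.5 and 70.2 in *Ehmt2*fl/fl sections, beside 5.30, 33.1, 111 and 116 over all spots. The part of fat cells in the difference between genotypes was not tested.

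**Figure D4:**
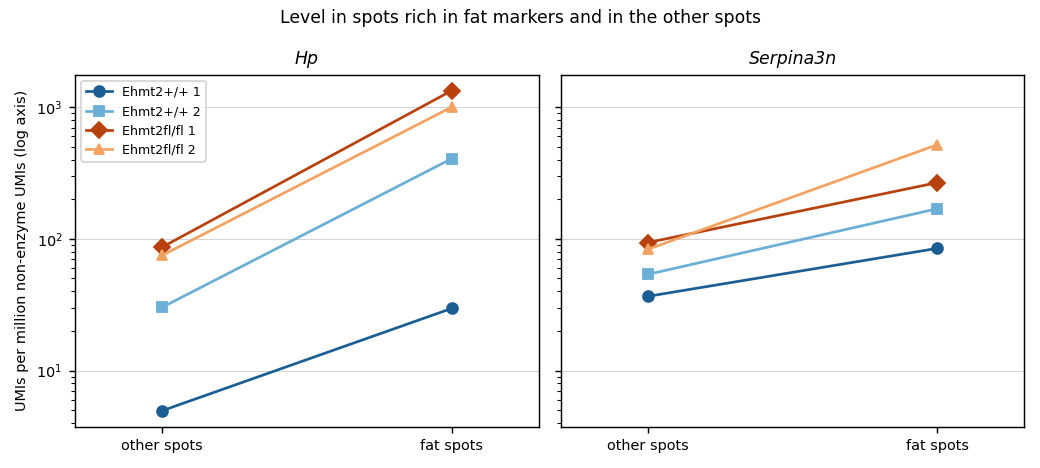
Non-enzyme CPM of *Hp* and *Serpina3n* in spots rich in fat markers and in the other spots (log axis), with lines joining the pair of values of 1 section. *Hp* is at 1336 and 1002 in the fat-marker spots of the *Ehmt2*fl/fl sections, and both genes lie higher in the fat-marker spots of all 4 sections.

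Fibroblast-marker spots, chosen in the same way from 9 fibroblast genes, had 2 members called, where 0.175% of 20029 genes were called higher and 0.225% lower. *Hp* was at 20.7, 30.4, 223 and 286 non-enzyme CPM against 4.54, 33.2, 98.8 and 97.1 elsewhere, higher in 3 of 4 sections (log2 fold change 1.16, SE 0.26, edgeR adjusted p = 0.0045). *Serpina3n* was at 120, 76.0, 144 and 239 against 33.1, 53.8, 92.1 and 87.3, higher in 4 of 4 sections (0.93, SE 0.24, edgeR adjusted p = 0.0235). Leaving out *Ehmt2*fl/fl replicate 1 ended both calls (edgeR adjusted p = 0.293 and 0.212), as did leaving out *Ehmt2*fl/fl replicate 2 (0.781 and 0.832) or taking 5% of spots (0.255 and 0.444), and *Serpina3n* was also lost without *Ehmt2*+/+ replicate 2 (edgeR adjusted p = 0.0584).

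Duct-marker and islet-marker spots had no member called, with 0.04% of genes higher and 0.025% lower in duct spots and 0.777% higher and 0.0847% lower in islet spots. *Hp* was at 6.18, 0, 51.9 and 47.6 non-enzyme CPM in duct spots against 5.26, 33.7, 115 and 120 elsewhere (log2 fold change -1.09, SE 0.35, edgeR adjusted p = 0.934) and at 2.85, 38.2, 41.9 and 63.7 in islet spots against 5.53, 32.8, 119 and 119 elsewhere (-0.94, SE 0.27, edgeR adjusted p = 0.065). Without *Ehmt2*+/+ replicate 1 *Hp* was called lower in both (edgeR adjusted p = 0.0015 and 0.00704). The *Hp* value of 0 in duct spots of *Ehmt2*+/+ replicate 2 is no measured absence, since 1 UMI there stands for 16.1 non-enzyme CPM. The 6.18 of replicate 1 rests on 5 UMIs. *Lcn2* in duct spots differed between the genotypes: it was 40.8 and 16.1 in *Ehmt2*+/+ duct spots against 45.7 and 63.8 elsewhere, the second value resting on 1 UMI, and 354 and 443 in *Ehmt2*fl/fl duct spots against 326 and 313 elsewhere. The difference of the log2 fold changes was 1.32 (SE 0.31, edgeR adjusted p = 0.0064) in a fit that called 5.22% of genes in that direction, with 80.1% of genes at or below *Lcn2* and an all-gene median of 0.65. For *Serpina3n* in fat-marker spots the same difference was 1.82 (SE 0.45, edgeR adjusted p = 0.0257), with 0.345% of genes called in that direction, 73.4% of genes at or below *Serpina3n* and an all-gene median of 0.94. Spots rich in macrophage, neutrophil, endothelial or mesothelial markers were too few in at least 1 section to be compared, with 12, 1, 17 and 1 spots in *Ehmt2*+/+ replicate 2.

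**Figure D5:**
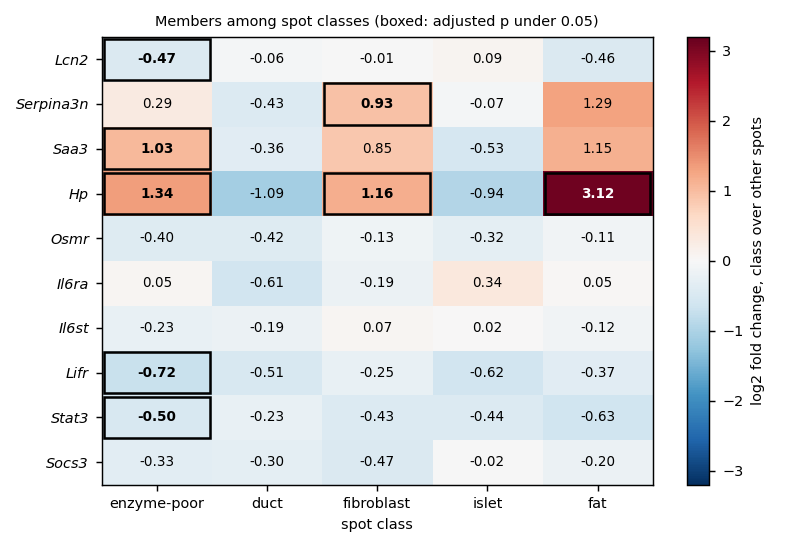
Log2 fold change of each member in 5 spot classes over the other spots of the same sections in the edgeR fits, with boxes around values at an adjusted p under 0.05. *Hp* is boxed in enzyme-poor (1.34), fibroblast (1.16) and fat (3.12) spots, and no receptor is boxed as higher in any class.

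*Hp* was unevenly spread from spot to spot, with the highest value of the set in 3 of 4 sections. Its variance beyond counting error, as a squared coefficient of variation, was 3.94, 5.47, 12.0 and 7.68 in the 4 sections, a value reached by 0.582%, 0.41%, 0.276% and 0.164% of genes with at least 100 UMIs. In the *Ehmt2*+/+ sections *Hp* had 87 UMIs, fewer than those genes, and 125 UMIs, with at most 3 in a spot. Of the other members, *Osmr* reached 5.57 in *Ehmt2*+/+ replicate 2, from 65 UMIs, and all remaining values were at most 1.92. Correlation across spots of log-transformed levels was compared with 7455 genes seen in at least 1% of spots of every section, a description in which spots share their library and depth. *Hp* was most like *Car3*, which encodes the carbonic anhydrase III abundant in adipocytes (mean r = 0.22 over the 4 sections, from 0.12 to 0.37), then *Fabp4* (0.12) and *Nnmt* (0.086). *Serpina3n* was most like *Car3* (0.12), *Col3a1* (0.082) and *Fabp4* (0.072). *Lcn2* was most like *Spp1* (0.095), *Atp1b1* (0.082) and *Mmp7* (0.08). For *Mmp7*, r was 0.035 and 0.00026 in the *Ehmt2*+/+ sections and 0.13 and 0.15 in the *Ehmt2*fl/fl sections. *Il6ra*, *Il6st*, *Lifr*, *Stat3* and *Socs3* had no gene above a mean r of 0.055, and *Saa3* and *Osmr* were seen in too few spots. Of 45 pairs of members, 11 had at least 5 spots foreseen to hold both genes in every section. The foreseen number came from their separate shares within bins of spots of similar non-enzyme depth. Of these pairs, 2 shared more spots than foreseen in all 4 sections: *Lcn2* with *Il6st* (1.06, 1.23, 1.07 and 1.02 times) and *Serpina3n* with *Il6st* (1.05, 1.20, 1.25 and 1.12 times). The ratios are close to 1, and depth still differs among the spots of a bin.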

How the data were processed

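The members and gene lists were chosen with earlier results of these data known. The authors sequenced Visium CytAssist libraries of 4 formalin-fixed pancreas sections, and the deposited UMI counts per spot and gene were made with Space Ranger 2.0.1 (per the file headers) on mm10 (per the submitters' processing notes). Deprecated probe features (304 of 32589) were left out, and spots with at least 500 UMIs were kept. Other spots, and the tissue marks, were not used. UMIs were summed per section and tested with edgeR 4.0.16 (quasi-likelihood, TMM factors, genes kept by filterByExpr at its minimum of 10, calls at an adjusted p under 0.05 after Benjamini-Hochberg correction) in R 4.3.3, with DESeq2 1.42.0 as an alternative. Spot classes were the 10% of spots with the highest share of a marker list and at least 3 of its UMIs (25% with the lowest enzyme share for enzyme-poor spots), fitted with section as a block where each section had at least 30 class spots. The fat class, with 28 in 1 section, its interaction with genotype and that of the other classes, the slide block and the fits per genotype were added after seeing the data. Thinning used the expected share of spots holding a UMI, and thinning to 500 non-enzyme UMIs left out the spots with fewer of them. Named were every member, the 2 highest and 2 lowest genes of each list by log2 fold change, and the 3 genes most like each member. Some genes that this rule takes are not reported here. A count of 0 allows up to 3 counts, and intervals cover counting error only. Replicates were numbered in accession order, which pairs no samples. The tests were checked on simulated data with 2 sections a genotype and genes changed by a log2 of 2 in either direction. Of 199 changed genes, 187 were recovered at a dispersion of 0.05 and 0 at the 0.351 of these sections.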

Additional observations from a re-analysis of the deposited data

Results flagged for a closer look

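The log2 fold change of *Lcn2* in duct-marker spots over the other spots differed between genotypes by 1.32 (SE 0.31, edgeR adjusted p = 0.0064) beside a median of 0.65 over all genes, with 1 *Lcn2* UMI in the duct spots of *Ehmt2*+/+ replicate 2. That of *Serpina3n* in fat-marker spots differed by 1.82 (SE 0.45, edgeR adjusted p = 0.0257) beside a median of 0.94, with 5 *Serpina3n* UMIs in the fat-marker spots of *Ehmt2*+/+ replicate 2.

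Spots under the valley between the low and the high mode of UMIs per spot, which no comparison used, also held member UMIs. For 4 of 10 members the share of such spots was higher in both *Ehmt2*fl/fl sections than in either *Ehmt2*+/+ section. The mean share of such spots with a UMI in the *Ehmt2*fl/fl sections was 0.351% for *Lcn2* (0.125% and 0.0493% in the *Ehmt2*+/+ sections), 0.131% for *Saa3* (0.0624% and 0.0987%), 0.557% for *Hp* (0.0624% and 0.247%) and 0.0569% for *Osmr* (0.0374% and 0.0247%). It was lower in both *Ehmt2*fl/fl sections for *Lifr* and for *Stat3* (0.125% and 0.123% against 0.0472% and 0.0847%), and it overlapped for *Serpina3n*, *Il6ra*, *Il6st* and *Socs3*. The valley lay at 472 and 149 UMIs in the *Ehmt2*+/+ sections and at 132 and 105 in the *Ehmt2*fl/fl sections, so these spots are of unlike depth. The same share over all genes was not computed, so the number of members says nothing particular about the set.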

How the results depend on the processing

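The replicate numbers were given in accession order and were not used to pair sections. Sections were paired by slide, each of which held 1 section of each genotype, in the fit with slide as a block. In the genotype fit, genes called higher numbered 388 with library sizes alone, 3 with upper-quartile normalization, 6 with DESeq2 and 0 to 9348 leaving out 1 section, against 11; genes called lower numbered 0 with upper-quartile normalization, 464 with DESeq2, 2 with the slide block and 0 to 7305 leaving out 1 section, against 11. Members called higher were 2 with library sizes alone and 0 to 3 leaving out 1 section, and called lower 0 to 5. The highest counts came without *Ehmt2*+/+ replicate 2. Members turned sign with library sizes alone (*Osmr* 1.70, *Il6st* 1.42, *Lifr* 0.62, *Stat3* 1.003, *Socs3* 1.45), upper-quartile normalization (*Osmr* 0.30, *Il6st* 0.025, *Socs3* 0.10), DESeq2 (*Serpina3n* -0.29) and leaving out 1 section (*Serpina3n* -0.38 to 0.62, *Osmr* -1.22 to 0.77, *Il6ra* -0.0026 to 0.78, *Il6st* -1.49 to 0.48, *Stat3* -1.91 to 0.10, *Socs3* -1.28 to 0.36). The positive ends for *Osmr*, *Il6st*, *Stat3* and *Socs3* came without *Ehmt2*+/+ replicate 1. The cause was not tested.

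In non-enzyme CPM the *Lifr* difference between genotypes turned to -6.33. Share differences turned positive when thinned to 500 UMIs (*Osmr* 0.905, *Il6st* 3.37, *Lifr* 0.372, *Stat3* 0.787 and *Socs3* 2.57 percentage points) and to 500 non-enzyme UMIs (*Osmr* 0.70, *Il6st* 1.87, *Stat3* 0.145, *Socs3* 1.65). The deepest section had the highest unthinned shares of these genes. Shares at 500 non-enzyme UMIs cover only the spots with at least that many. With the 500 UMIs and the 500 non-enzyme UMIs, 10 and 8 members were higher without overlap, against 4 unthinned, and 1 was lower at 500 non-enzyme UMIs. The same counts over all genes were not computed for shares of spots, so they say nothing particular about the set.

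In spot classes, library sizes alone called 15254 genes in enzyme-poor, 26 in duct, 498 in fibroblast and 210 in fat spots (against 3247, 13, 80 and 74), with 1, 4, 1 and 3 members in duct, fibroblast, islet and fat spots (against 0, 2, 0 and 1). In islet spots library sizes alone called 148 genes higher and 15 lower. DESeq2 called 122 genes in fibroblast and 92 in islet spots (against 173), and 2 members in fat spots. In the fat spots it called 49 of 19988 genes higher and 24 lower, and gave no adjusted p to 12788. The smaller fibroblast class had 19 genes and 0 members. Leaving out 1 section gave 2163 to 2789 genes and 2 to 5 members (against 5) in enzyme-poor, 8 to 17 and 0 to 1 in duct, 16 to 135 and 0 to 3 in fibroblast, 125 to 166 and 0 to 1 in islet, and 14 to 110 and 1 to 3 in fat spots. Signs turned with library sizes alone in enzyme-poor spots (*Lcn2* 0.31, *Lifr* 0.093, *Stat3* 0.29), and for *Lcn2* in duct spots (0.16, 0.11 with DESeq2, 0.40 in *Ehmt2*fl/fl sections, -0.41 to 0.35 leaving out 1 section). Of the other values, 253 stayed the same. Levels and shares were judged by direction alone, and fold changes by direction and side of the threshold. Counts of called genes in the pathway lists were the same if they stayed at 0. Of the fold changes, 17 became called and 23 lost the call, and 15 of the pathway-list counts moved from 0.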
